A study of Mus musculus with 10 samples.

Results

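The genes described here encode the proteins of the cytosolic ribosome. Their mRNAs were measured on Affymetrix arrays in the mouse embryonic stem (ES) cell line CGR8 (strain SV129) and in cells differentiated from it. Both were kept with and without EBIO, an opener of the potassium channels that calcium activates. A gene was included if its symbol began with Rpl or Rps and a number, or was Rplp0, Rplp1, Rplp2 or Rpsa. Pseudogenes and the Rps6k kinases were left out. The probe set of each gene was chosen by its measured level, as the one that named the gene alone and had the highest mean over the 10 arrays. This gave 50 genes of the 18193 with such a probe set. By symbol alone, 26 (Rpl) were counted as large subunit and 24 (Rps) as small subunit genes. Levels are therefore given as description without a test. The differences between EBIO and control were not part of the rule. A further 31 symbols of the family occurred only on probe sets that name several genes, so the 50 are not the whole family.

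Of the 4 groups, the first held ES cells after 3 days in 1 mM EBIO (n = 3) and the second untreated ES cells (n = 3), with passages 25, 26 and 27 in each. The other groups were EBIO-treated (n = 2) and untreated (n = 2) differentiated cells. The differentiated cells spent 5 days as embryoid bodies, followed by 10 days with or without EBIO, for which the labels give no dose. All samples share 1 cell line, and the differentiated cultures are mixtures of cell types. By its title the series concerned heart cell formation and pacemaker-like cells.

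The cytosolic ribosome is built from a small subunit, which binds the mRNA and decodes it, and a large subunit, which joins amino acids. Its proteins are needed in near equal amounts, and their mRNAs are among the most abundant in dividing cells. Most of these mRNAs begin with a stretch of pyrimidines at the cap, the 5′ terminal oligopyrimidine (TOP) motif, through which mTOR signalling and the protein Larp1 control their translation. That control acts on translation and on mRNA stability, and an array measures only the amount of mRNA.

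The sequences around the transcription start are shown for genes on which the results below turn, since the start is where the TOP motif lies. Each window runs from 30 bases before the start to 20 bases from it on, 5′ to 3′ on the gene's strand, from RefSeq on GRCm38.p6. Capitals mark the longest uninterrupted run of C or T within 25 bases of the start, where it has at least 8 bases. In Rpl39l the marked run begins at the edge of that stretch, and the base before it is also a C.

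Rps9, chr7:3704011-3704060, plus strand: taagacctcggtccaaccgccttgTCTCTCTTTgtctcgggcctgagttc
Rpl35, chr2:39005112-39005161, minus strand: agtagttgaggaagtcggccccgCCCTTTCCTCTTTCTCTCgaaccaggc
Rpl14, chr9:120571487-120571536, plus strand: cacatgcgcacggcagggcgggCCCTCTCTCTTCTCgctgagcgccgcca
Rpl22l1, chr3:28805478-28805527, plus strand: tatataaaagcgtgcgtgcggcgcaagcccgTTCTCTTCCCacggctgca
Rps27, chr3:90213629-90213678, minus strand: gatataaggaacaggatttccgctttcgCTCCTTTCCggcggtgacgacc
Rpl39l, chr16:10170198-10170247, plus strand: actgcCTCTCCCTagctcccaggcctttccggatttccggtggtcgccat
Rpl37, chr15:5116583-5116632, plus strand: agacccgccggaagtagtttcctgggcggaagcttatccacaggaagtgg
Rps2, chr17:24720033-24720082, plus strand: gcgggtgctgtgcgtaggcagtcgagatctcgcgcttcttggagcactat

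In Rps9, Rpl35, Rpl14, Rpl22l1 and Rps27 the run lay at or near the annotated start. In Rpl39l it lay well before the start, and the windows of Rpl37 and Rps2 held no run of this length. RefSeq's table had 52 promoters for 44 of the 50 genes. A run of at least 8 C or T on the gene's strand, within 25 bases of the start, was present in 23 of them (44.2%), against 6464 of 32851 promoters of all genes (19.7%). The letters CCGGAA form the core of an Ets factor motif. Of the windows shown, that of Rpl37 holds them on the gene's strand and those of Rpl39l and Rps27 on the other strand. On either strand of the 300-base promoter they were found in 28 of 52 (53.9%), against 4894 of all promoters (14.9%). TATAAA between 40 and 16 bases before the start was present in 1 of 52 (1.92%), that of Rpl22l1, against 655 of all promoters (1.99%). A C or T run and a CCGGAA match can overlap by a few bases. These counts describe letters and say nothing of binding or of translation.

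Most of these probe sets were close to the top of the array's range. Of the 50, 36 had a mean of at least 12 on the log2 scale over the 10 arrays, the lowest of them at 12.23, and the other 14 lay at or below 11.49. The highest value on an array was 13.85 to 13.94 in ES cells and 14.58 or slightly more in differentiated cells. Of the 50 probe sets, 35 to 37 lay above the 99th percentile on every array.

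Within 1 log2 unit of the array's highest value lay 21, 24 and 19 of the 50 in EBIO-treated ES cells, against 32, 32 and 31 in untreated ES cells. In differentiated cells it was 21 and 23 with EBIO and 28 and 28 without. Counts over all probe sets were also lower with EBIO. They were 125, 124 and 114, against 139, 149 and 156 in untreated ES cells. In differentiated cells they were 136 and 134 with EBIO and 143 and 141 without. Rpl41, Rplp2, Rps29, Rpl37a, Rps2, Rps28, Rpl7a and Rpl38 had the brightest probe sets. A probe set's brightness depends on its probes as well as on the mRNA, so genes are not ranked by it. Whether signals this near the top understate a change was not tested by a dilution or spike-in here. At the other end, Rps16 (3.38 to 3.97 over all arrays) and Rpl3l (3.42 to 3.80), a paralog of heart and skeletal muscle, lay under the array median on every array and were tested in neither stage. Rpl39l was tested in ES cells only, and the other 47 in both stages.

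**Figure D1:**
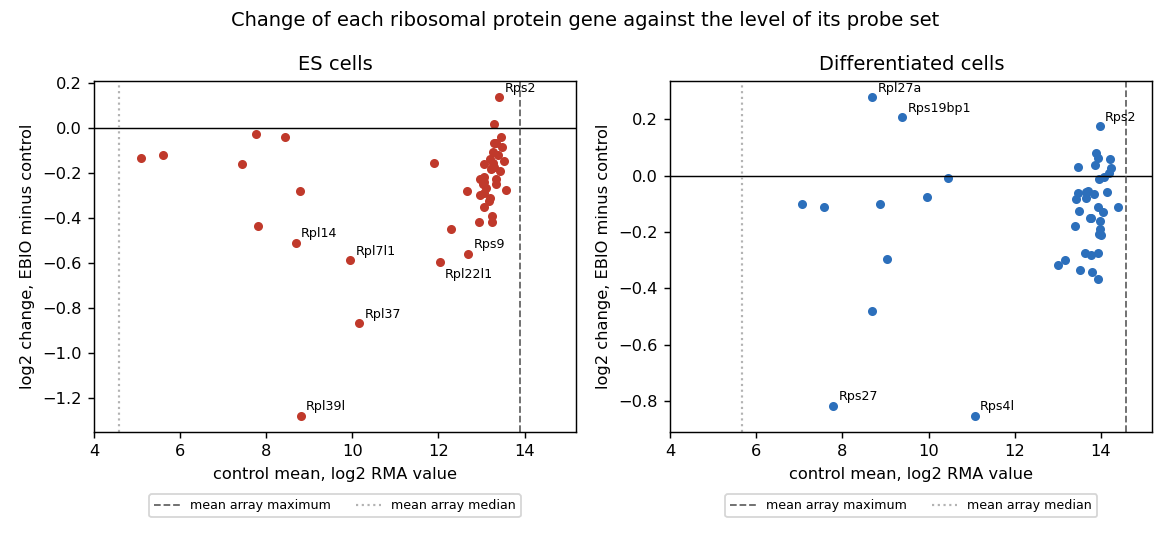
Log2 change of each tested ribosomal protein gene (EBIO minus control, vertical axis) against its untreated mean (horizontal axis, log2 RMA value), 1 point per gene, in ES cells (left) and differentiated cells (right); the dashed line is the mean array maximum and the dotted line the mean array median. Most points stand within about 1 unit of the array maximum, and the largest changes belong to probe sets further from it.

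Several features of the samples moved with the treatment. In ES cells all 10 pluripotency markers were lower with EBIO (array means 7.06 to 7.46, against 10.90 to 11.11 without it). Of 11 proliferation markers tested there, 4 were lower and none higher (limma, adjusted p under 0.05), where 21.2% of all genes were lower and 23.5% higher. At an unadjusted p under 0.05, 2 proliferation markers were higher. In differentiated cells with EBIO, all 10 cardiomyocyte markers were higher (array means 12.95 to 12.98, against 9.01 to 9.14 without it), all 8 fibroblast markers tested and all 10 macrophage markers were lower, and 10 of 11 proliferation markers were lower. In such bulk samples, fewer cells of a type and less RNA per cell cannot be told apart. The Actb 3′ probe set exceeded its 5′ probe set by 0.14 ± 0.06 in EBIO-treated and 0.42 ± 0.09 in untreated ES cells (log2, SD, n = 3 each), and by 0.46 ± 0.02 and 0.43 ± 0.04 in EBIO-treated and untreated differentiated cells (n = 2 each). The same difference for Gapdh was 0.02 ± 0.02 in EBIO-treated and -0.01 ± 0.07 in untreated ES cells, and 0.025 and 0.031 in EBIO-treated and untreated differentiated cells. The part of these features in the results below was not tested.

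The first comparison asked how 3 days of EBIO changed ribosomal protein mRNAs in ES cells. Differences were small and ran mostly one way. Of 48 genes tested with limma, 12 fell and none rose (adjusted p under 0.05 over all genes tested). Among all 12096 genes tested 21.2% fell and 23.5% rose, 44.8% in all, so the share that fell, 25%, was close to that of all genes. At an unadjusted p under 0.05, 19 passed, none of them higher. The estimate was below 0 for 46 of 48, against 53.9% of all genes, and the median change was -0.23, against -0.04 for all genes. After quantile normalization of all 10 arrays together, these medians were -0.13 and -0.06. In 36 of 48 every EBIO array lay below every untreated array, and in 1 every EBIO array lay above, against 26.8% and 27.9% of all genes. For 44 of 48 the change was smaller than 1.5-fold.

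The median over the 50 genes on each array was 12.79, 12.86 and 12.75 with EBIO, against 13.10, 13.10 and 13.03 without it. The groups did not overlap in this median. Of the large subunit genes 9 of 25 fell, with a median change of -0.28. Of the small subunit genes 3 of 23 fell, with a median of -0.17. These counts go by symbol and include 2 assembly proteins described below, Rpl7l1, which fell, and Rps19bp1, which was not called. The 12 tested genes with a mean under 12 had a median of -0.36 and 6 that fell, and the 36 brighter ones a median of -0.22 and 6 that fell. The number that fell depended on single arrays, and was 6 without untreated array 1, 5 without untreated array 2, 7 without EBIO array 1 and 7 without EBIO array 3. It was 9 with arrays centred on their median, where Rpl8, Rpl11 and Rpl12 lost their call, and 8 after quantile normalization, where Rpl8, Rpl11, Rpl35 and Rps15 did.

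**Figure D2:**
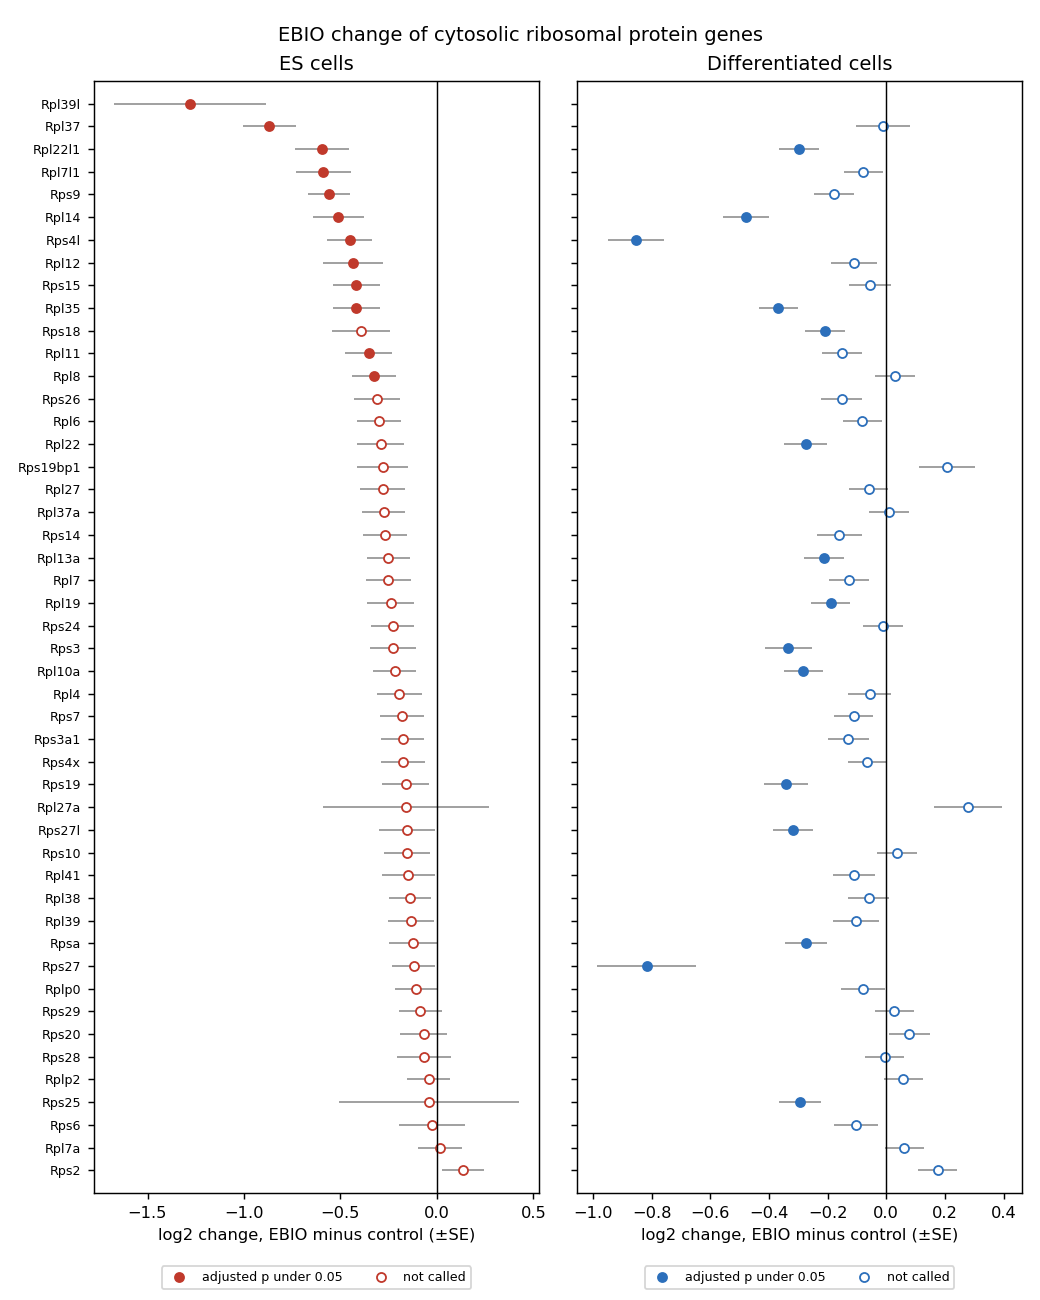
Log2 change (EBIO minus control) of each tested gene with its standard error, 1 row per gene in the order of the ES change, in ES cells (left) and differentiated cells (right); filled points have an adjusted p under 0.05 in limma. In ES cells only Rps2 and Rpl7a have an estimate above 0, while 10 of 47 do in differentiated cells.

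Rpl37, a zinc-binding protein of the large subunit, had values of 9.15, 9.43 and 9.31 with EBIO, against 10.05, 10.11 and 10.34 in untreated ES cells. Every EBIO array was below every untreated array. The change was -0.87 (SE 0.14, adjusted p = 0.00099, limma), 1.83-fold lower, and passed in all 16 alternative settings. Its probe set is of the kind whose probes can match related sequences (suffix _x_at), and copies of Rpl37 exist in the genome.

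Rps9, a small subunit protein that binds early to the ribosomal RNA, had 12.14, 12.12 and 12.15 with EBIO, against 12.69, 12.73 and 12.67 without. Replicates lay within 0.1 of each other and the groups were well apart. Its change was -0.56 (SE 0.11, adjusted p = 0.0031, limma), 1.47-fold lower, and it too passed in all 16 settings. The start window of Rps9 holds a run of pyrimidines and that of Rpl37 does not.

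Rpl14 and Rpl35, both on the surface of the large subunit, fell as well. Rpl14 measured 8.21, 8.04 and 8.28 with EBIO, against 8.79, 8.75 and 8.53 without, a change of -0.51 (SE 0.13, adjusted p = 0.0118, limma). Rpl35 measured 12.91, 12.85 and 12.75 with EBIO, against 13.30, 13.32 and 13.13 without, a change of -0.42 (SE 0.12, adjusted p = 0.0205). The groups did not overlap for either gene. Rpl35 missed the threshold without untreated array 1 (adjusted p = 0.0517), untreated array 2 (0.0721), EBIO array 2 (0.0529) or EBIO array 3 (0.0802), and after quantile normalization of all arrays (-0.29, 0.0783).

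The other genes that fell in ES cells were nearer the threshold. Rpl12, a protein at the base of the stalk, changed by -0.44 (adjusted p = 0.0496, limma), Rps15, of the small subunit's head, by -0.42 (0.0213), Rpl11, which binds the 5S ribosomal RNA and can bind Mdm2, by -0.35 (0.0412), and Rpl8, near the peptidyl transferase centre, by -0.33 (0.0444). Rpl11, Rps15 and Rpl8 were named after their values were seen. Each of these 4 lost its call without at least 4 of the 6 arrays in turn, with adjusted p up to 0.168 for Rpl12, 0.126 for Rpl11, 0.0808 for Rps15 and 0.148 for Rpl8. Fitting passage as a block gave 15 genes that fell, and added Rps18 (adjusted p = 0.0192), Rps26 (0.0383) and Rpl6 (0.0488).

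Rps2 and Rpl7a were the only genes with an estimate above 0 in ES cells. Rps2, a small subunit protein at the mRNA entry, had 13.52, 13.54 and 13.57 with EBIO, against 13.41, 13.39 and 13.43 without. All EBIO arrays were above all untreated ones, by 0.14 (SE 0.11, adjusted p = 0.352, limma), and the difference did not pass. Rpl7a, a protein of the large subunit, differed by 0.02 with overlapping groups.

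Rps25 and Rpl27a had a wide spread in ES cells. Rps25, a small subunit protein, had 7.72, 8.77 and 8.69 with EBIO and 7.48, 8.38 and 9.45 without, with an SE of 0.47. Rpl27a, of the large subunit, had 6.87, 7.09 and 7.89 with EBIO and 6.63, 7.27 and 8.43 without, with an SE of 0.43. In both genes the lowest and the highest values were those of untreated arrays 1 and 3.

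**Figure D3:**
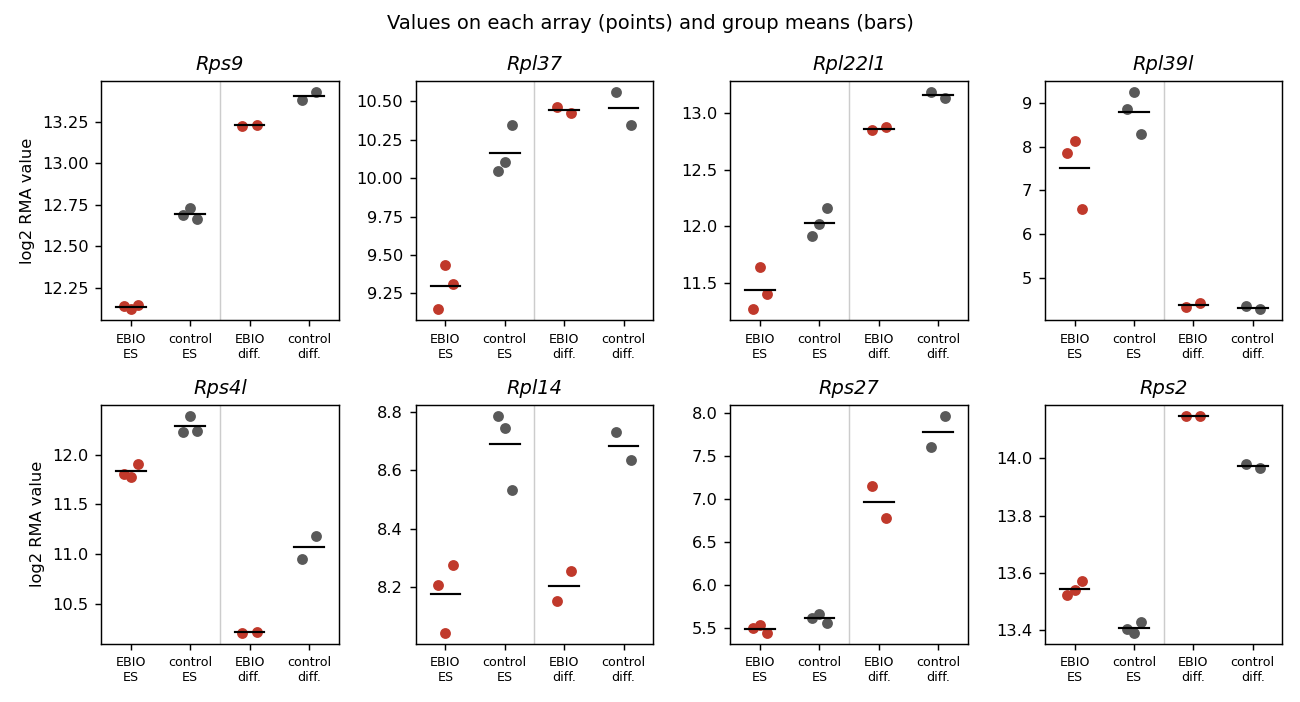
Log2 RMA values on each array (points) with the group mean (bar) for 8 ribosomal protein genes, EBIO in red and untreated in grey, ES cells left and differentiated cells right of the line in each panel; each panel has its own vertical axis. Rpl37 and Rps9 separate clearly in ES cells, Rps4l and Rpl14 in both stages and Rps27 in differentiated cells, while Rps2 has its EBIO arrays above the untreated ones in both. The stages were normalized separately and are not compared in level.

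The second comparison set differentiated cells cultured with EBIO against untreated differentiated cells. Of 47 genes tested with limma, 15 fell and none rose, against 32.6% and 33.3% of all 12338 genes tested (65.9% in all). The share that fell, 31.9%, was close to that of all genes. At an unadjusted p under 0.05, 17 passed, 1 of them higher. Estimates were below 0 for 37 of 47 (48.4% of all genes), with a median change of -0.11 against 0.02 for all genes. Every EBIO array lay below every untreated array for 32 genes and above for 9, where 41% and 43.4% of all genes did so.

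With arrays centred on their median, the split became 12 lower and 3 higher, and the median change -0.0443, against 0.09 for all genes. The 3 that rose were Rps2 (adjusted p = 0.024, limma), Rps19bp1 (0.0365) and Rpl27a (0.0446), and the 3 that lost their call were Rpl13a (0.118), Rpl19 (0.172) and Rps18 (0.123). Array medians of the 50 genes were 13.53 and 13.54 with EBIO and 13.70 and 13.70 without. Counted by symbol as before, large subunit genes fell in 7 of 24 (median change -0.09) and small subunit genes in 8 of 23 (-0.13). For 45 of 47 the change was smaller than 1.5-fold. The number called was 8 without untreated array 2 and 7 without EBIO array 2. In a fit of all 4 groups it was 6, where Rpl10a, Rpl13a, Rpl19, Rpl22, Rpl22l1, Rps18, Rps25, Rps27l and Rpsa lost their call.

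Rps27, a zinc-binding protein of the small subunit, had values of 7.16 and 6.79 in EBIO-treated differentiated cells, against 7.60 and 7.97 in untreated ones. Both EBIO arrays were lower than both untreated arrays, although replicates differed by about 0.4. The change was -0.82 (SE 0.17, adjusted p = 0.0071, limma), and it passed in all 13 alternative settings. This probe set was far from the top of the arrays.

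Rpl14 and Rpl35 fell in this stage too. Rpl14 had 8.15 and 8.26 with EBIO, against 8.73 and 8.64 without, a change of -0.48 (SE 0.08, adjusted p = 0.0027, limma). Rpl35 had 13.55 and 13.59 with EBIO, against 13.95 and 13.93 without, a change of -0.37 (SE 0.07, adjusted p = 0.0044). Groups did not overlap, and both passed in all 14 alternative settings.

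Among the small subunit genes, Rps19, mutated in human Diamond-Blackfan anaemia, had 13.49 and 13.39 with EBIO, against 13.76 and 13.81 without (change -0.34, adjusted p = 0.0084, limma). Rps3, at the mRNA entry channel, had 13.25 and 13.10 with EBIO, against 13.48 and 13.53 without (-0.33, adjusted p = 0.0132). Rpsa, known also as the laminin receptor, had 13.70 and 13.62 with EBIO, against 13.92 and 13.95 without (-0.27, adjusted p = 0.0163). In these 3 genes the EBIO arrays lay below the untreated ones. Rps3 missed the threshold without untreated array 2 (0.0541) or EBIO array 2 (0.073), and so did Rpsa (0.0575 and 0.0925).

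Further genes that fell were Rps25 (-0.29, adjusted p = 0.0132, limma), Rpl10a (-0.28, 0.0118), Rpl13a (-0.21, 0.034), Rps18 (-0.21, 0.0381) and Rpl19 (-0.19, 0.048), all named after their values were seen. Rpl13a, Rps18 and Rpl19 lost their call without any single array, with adjusted p of 0.0608 to 0.175. With probe sets averaged, the change of Rps18 was -0.0412 (adjusted p = 0.6). Rps25 lost it without untreated array 2 (0.0535) or EBIO array 2 (0.0725), and Rpl10a without EBIO array 2 (0.0612). Rps2 had 14.15 and 14.15 with EBIO, against 13.98 and 13.97 without, a difference of 0.18 (adjusted p = 0.0592) that did not pass.

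Of the 47 genes tested in both stages, 37 had an estimate below 0 in both, against 27.2% of the 10925 genes tested in both. In both stages 4 of the 47 fell (Rpl14, Rpl35, Rpl22l1 and Rps4l), a share close to the 9.37% of all genes, and of all 50, 27 were called in neither. Over those 47, changes in differentiated and in ES cells correlated at 0.24 (Pearson) and 0.30 (Spearman), as description only. Over 10925 genes the values were 0.20 and 0.22. Genes are not independent replicates, and each change shares its arrays with all the others.

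The third comparison tested, in 1 fit of all 10 arrays, whether the EBIO effect differed between stages. Of 48 genes, 4 had a higher and 1 a lower effect in differentiated than in ES cells (limma, adjusted p under 0.05), against 20.5% and 25% of all 13712 genes tested (45.5% in all). The number called was 1 without untreated differentiated array 2 or EBIO differentiated array 2. It was 2 without either of the other 2 differentiated arrays or without EBIO ES array 1 or 3, and 3 without untreated ES array 2.

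Rpl37 had the largest difference between stages among the genes called. In differentiated cells it had 10.46 and 10.42 with EBIO and 10.56 and 10.35 without, with overlapping groups and a change of -0.01 (SE 0.09), while it fell in ES cells. The difference of these changes was 0.86 (SE 0.19, adjusted p = 0.0034, limma), and it passed in all 18 alternative settings.

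Rps27 went the other way. In ES cells its values were 5.50, 5.53 and 5.44 with EBIO and 5.62, 5.66 and 5.55 without, a change of -0.12 that did not pass (adjusted p = 0.42). The difference from the change in differentiated cells was -0.70 (adjusted p = 0.016), which missed the threshold without untreated differentiated array 2 (-0.51, adjusted p = 0.096) or EBIO differentiated array 2 (-0.51, 0.0929), and after quantile normalization of all arrays (-0.56, 0.0507). Its ES values lay about 1 log2 unit above the array medians of 4.52 to 4.62, where RMA values are compressed.

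For Rps9 the change in differentiated cells was -0.18 (13.22 and 13.23 with EBIO, 13.38 and 13.43 without), and the difference between stages was 0.38 (adjusted p = 0.0397, limma). With the replicate number as a block, which is a passage in ES cells and has no such label in differentiated cells, its adjusted p was 0.0503. Quantile normalization of all arrays together gave 0.23 (adjusted p = 0.182) and probe sets averaged per gene gave 0.28 (adjusted p = 0.187). It passed without untreated ES array 1 or 3 but not without any other array (adjusted p 0.0583 to 0.133). Rpl7l1 and Rps19bp1, the other 2 called, are described next with the family's paralogs.

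Both are caught by the symbol rule without being ordinary ribosomal proteins. Rpl7l1 is a paralog of Rpl7 that works in ribosome assembly. It had 9.29, 9.51 and 9.31 with EBIO and 9.76, 9.96 and 10.15 without in ES cells, and fell by 0.59 (adjusted p = 0.0092, limma) with no overlap. In differentiated cells it had 9.89 and 9.91 with EBIO and 9.96 and 9.99 without, a change of -0.08, and the difference between stages was 0.51 (adjusted p = 0.0446). That difference missed the threshold in 10 of 18 alternative settings.

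Rps19bp1 encodes a protein that binds Rps19 and takes part in ribosome assembly. Its values were 8.44, 8.59 and 8.51 with EBIO and 8.61, 8.96 and 8.81 without in ES cells, and 9.68 and 9.50 with EBIO and 9.31 and 9.45 without in differentiated cells. The EBIO arrays were the lower ones in ES cells and the higher ones in differentiated cells. Neither change passed (-0.28, adjusted p = 0.121, and 0.21, adjusted p = 0.103), and the difference between stages was 0.49 (adjusted p = 0.0494), which missed the threshold in 11 of 18 settings. Without these 2 genes, 11 of 46 fell in ES cells and 15 of 45 in differentiated cells.

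Several ribosomal proteins have a paralog that can take their place in the ribosome, and the changes of both are given side by side. Rpl39l, paralog of Rpl39 and best known from testis, had 7.85, 8.13 and 6.58 with EBIO in ES cells, against 8.87, 9.25 and 8.29 without. All EBIO arrays were lower, EBIO array 3 by far the lowest, and the change was -1.28 (SE 0.39, adjusted p = 0.0273, limma), 2.43-fold. It missed the threshold without untreated array 1 (adjusted p = 0.0681) or untreated array 2 (0.108). In differentiated cells it lay under the array median in both groups (4.34 and 4.43 with EBIO, 4.36 and 4.29 without). No difference between stages is given, since the values in differentiated cells lie at the dim end. Rpl39 itself differed by -0.14 in ES and -0.10 in differentiated cells, neither called.

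Rpl22l1, paralog of Rpl22, had 11.27, 11.64 and 11.40 with EBIO in ES cells, against 11.91, 12.02 and 12.16 without, and changed by -0.60 (SE 0.14, adjusted p = 0.0083, limma). In differentiated cells it had 12.85 and 12.88 with EBIO, against 13.19 and 13.13 without, a change of -0.30 (SE 0.07, adjusted p = 0.0107), which missed the threshold without EBIO array 1 (0.0533). Groups did not overlap in either stage. Rpl22, whose protein can repress Rpl22l1, differed by -0.29 in ES cells (adjusted p = 0.0867) and fell by 0.28 in differentiated cells (adjusted p = 0.0186). The call in differentiated cells was lost without untreated array 2 (0.0689) or EBIO array 2 (0.103), and with probe sets averaged the change was -0.0432 (adjusted p = 0.568).

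Rps4l, paralog of the X-linked Rps4x, had 11.81, 11.78 and 11.91 with EBIO in ES cells, against 12.23, 12.39 and 12.23 without. In differentiated cells it had 10.21 and 10.22 with EBIO, against 10.96 and 11.19 without. It fell in both, by 0.45 (SE 0.12, adjusted p = 0.013, limma) and by 0.85 (SE 0.09, adjusted p = 0.00057), and the difference between stages did not pass (-0.40, adjusted p = 0.0635). The ES call was lost without untreated array 2 (0.0527) or EBIO array 1 (0.0511). Rps4x differed by -0.17 and -0.06, neither called.

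Rps27l, a paralog of Rps27 and a p53 target, fell by 0.32 in differentiated cells (12.73 and 12.67 with EBIO, 13.02 and 13.02 without, adjusted p = 0.0082, limma) and differed by -0.16 in ES cells with overlapping groups. Rpl7 differed by -0.25 and -0.13, neither called. No test was made of a paralog's change against that of its partner. Rpl3, Rpl10, Rpl36a, Rpl36al, Rps27rt and Rplp1 are among the 31 symbols named only on shared probe sets and are not analysed singly here.

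Rplp0 and Rplp2 belong to the stalk of the large subunit, where elongation factors bind, and neither was called. Rplp0 differed by -0.11 in ES and -0.08 in differentiated cells, and Rplp2 by -0.04 and 0.06. Rps6, the substrate of the S6 kinases, differed by -0.03 and -0.10, neither called. The remaining bright genes Rpl41, Rps29, Rpl37a, Rps28 and Rpl38 differed by -0.07 to -0.28 in ES and by -0.11 to 0.03 in differentiated cells, none called. Rpl4, Rpl6, Rpl27, Rps3a1, Rps7, Rps10, Rps14, Rps20, Rps24 and Rps26 differed by -0.31 to -0.07 in ES and by -0.16 to 0.08 in differentiated cells, and none was called in the fit of each stage alone without a block. Several were called in other settings, among them Rpl6 and Rps26 in ES cells with passage as a block and with probe sets averaged per gene. Without probe sets of the suffix _x_at, other probe sets stood for Rps24 and Rps20, and their changes in differentiated cells were -0.84 (adjusted p = 0.000544) and 0.47 (adjusted p = 0.00483, limma). Those probe sets had means of 7.61 and 4.83 over the 10 arrays, that of Rps20 at the dim end.

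In 20 genes there were 46 further probe sets above the array median. In 14 of the 20 genes these others also had a median level of at least 12, so most were near the top of the range too. In ES cells 42 of the 46 had a change below 0 (median -0.37), and in 14 of 20 genes the median of the others was lower than the change of the brightest (medians over genes -0.38 and -0.25). This held for 11 of the 14 genes with bright others and 3 of the 6 with others under 12. In differentiated cells 31 of 46 were below 0 (median -0.09), and the others were lower in 10 of 20 genes (medians -0.10 and -0.11), 8 of the 14 and 2 of the 6.

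Rpl22 had ES changes of -0.29, -0.62 and -1.17 in its probe sets with means of 13.14, 12.06 and 9.49, while their changes in differentiated cells were -0.28, -0.23 and 0.37. Rpl27, a large subunit protein, had -0.28, -0.77 and -0.61 in ES cells at means of 12.88, 12.21 and 12.15. Rps3 had -0.23 at 13.04 and -0.82 at 8.83. Rpl22, Rpl27 and Rps3 were picked here after their values were seen. Probe sets of 1 gene can also report different transcripts. With probe sets averaged per gene in place of the brightest, 21 genes were called in ES cells, all lower, and 14 in differentiated cells, 2 of them higher. The 110 probe sets that name several genes, at least 1 of them ribosomal, had a median change of -0.22 in ES cells (95 below 0) and -0.06 in differentiated cells (78 below 0).

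**Figure D4:**
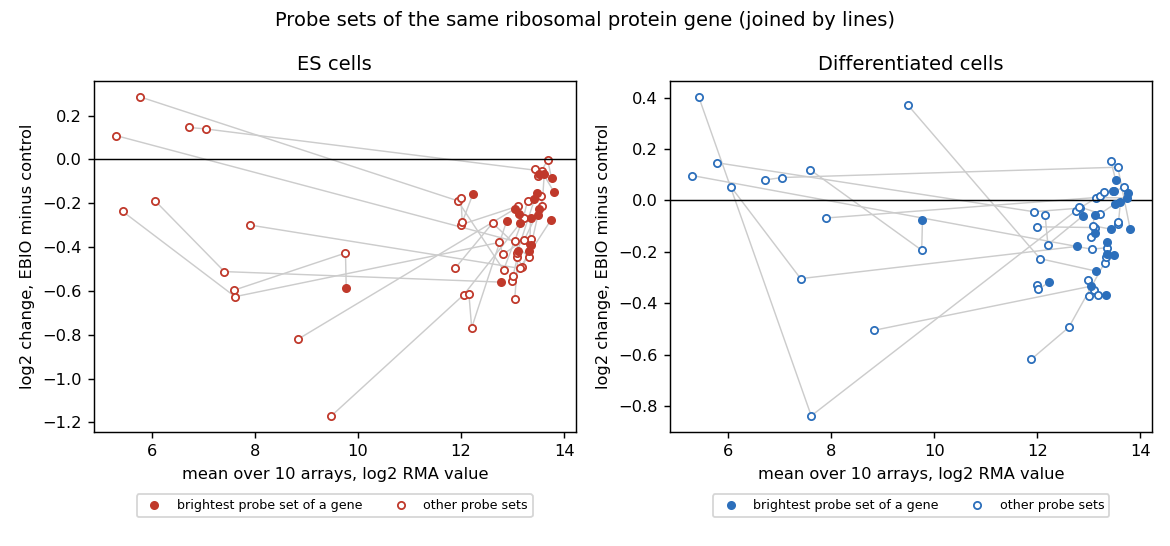
Log2 change (EBIO minus control) against the mean over 10 arrays for every probe set above the array median of the 20 genes with more than 1 such probe set, lines joining probe sets of a gene, in ES cells (left) and differentiated cells (right); filled points are the brightest probe set and open points the others. In ES cells the open points lie on the whole lower than the filled ones (medians -0.38 and -0.25 over genes), in differentiated cells they do not.

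Genes that make or use ribosomes were set beside the family. The counts of each list are to be read beside the shares of all genes tested. These were 21.2% lower and 23.5% higher in ES cells, and 32.6% and 33.3% in differentiated cells. Fau, whose product is cut to give ribosomal protein S30, was lower with EBIO in ES cells (-0.39, adjusted p = 0.0416, limma) and differentiated cells (-0.22, adjusted p = 0.0341). Fau was called in 9 of 16 alternative settings in ES cells and in 5 of 14 in differentiated cells, and lost the call in differentiated cells without any 1 of the 4 arrays (adjusted p 0.0531 to 0.134). Ribosome biogenesis genes fell in 40 of 53 in ES cells with none rising at an adjusted p under 0.05, and none higher among the 42 with an unadjusted p under 0.05 (median change -0.66). In differentiated cells 25 of 53 fell and 6 rose (median -0.23). Dkc1, the pseudouridine synthase of ribosomal RNA, fell by 1.70 in ES and 1.39 in differentiated cells. Rrp1b, a nucleolar protein, fell by 1.51 in ES cells and Ltv1, which helps export the small subunit, by 1.08 in differentiated cells.

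RNA polymerase I genes fell in 11 of 17 and rose in 1 in ES cells (median -0.49), and fell in 3 and rose in 1 in differentiated cells (median -0.03). The list as drawn up also holds Polr2e, Polr2f, Polr2h, Polr2k and Polr2l, subunits shared with other RNA polymerases. Ubtf, which opens ribosomal DNA for that polymerase, fell by 1.16 in ES cells. Among chaperones and quality control factors of ribosomal proteins 6 of 15 fell and 1 rose in ES cells, and 6 fell and 4 rose in differentiated cells. Bccip and Tsr2, a chaperone of Rps26, fell by 1.25 and 1.15 in ES cells.

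Translation initiation genes fell in 12 of 32 and rose in 2 in ES cells (median -0.27), and fell in 6 and rose in 8 in differentiated cells (median -0.02). Eif4b, a helper of the eIF4A helicase, fell by 0.88 and 0.31. Elongation genes fell in 2 of 10 in ES cells and fell in 4 and rose in 2 in differentiated cells. The 2 in ES cells were Eef2k (-1.24), the kinase of Eef2, and Eef1e1 (-0.76). In differentiated cells the largest falls were Eif5a2 (-0.95) and Eef2k (-0.34). There Eef1a2, the elongation factor 1A of muscle and nerve, rose by 1.00, and Eef2, the translocation factor, rose by 0.43. The list mixes elongation factors with a regulator and was not split by direction of action.

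Genes of mTOR signalling and TOP mRNA control fell in 1 of 24 and rose in 5 in ES cells. In differentiated cells 4 of 23 fell and 12 rose (median 0.22). The list was not split into genes that promote and genes that restrain mTOR, so these counts give no direction for the pathway. In ES cells its largest called changes were Deptor (-2.73, to below the array medians), Sesn1 (1.07) and Sesn3 (1.05). In differentiated cells they were Ddit4 (-0.98), Sesn3 (0.95), Mtor (0.92) and Sesn1 (-0.91). Larp1 differed by -0.19 in ES cells (adjusted p = 0.216, limma) and rose by 0.26 in differentiated cells (adjusted p = 0.036). Eif4ebp1, an mTOR substrate that blocks initiation, differed by -0.51 and -0.07, neither called. Myc, an activator of ribosomal genes, differed by 0.46 in ES cells (adjusted p = 0.116) and fell by 0.80 in differentiated cells (adjusted p = 0.0134), while Mycn fell by 0.52 (adjusted p = 0.0307) and 1.23 (adjusted p = 0.00017). Of the 11 Myc family and partner genes, 2 fell and 2 rose in ES cells, where 21.2% and 23.5% of all genes did. In differentiated cells 7 fell and 3 rose, against 32.6% and 33.3% of all genes. This list was not split by direction of action either. Its rises included Mxd4 in ES cells (1.03, called in 8 of 15 alternative settings). In differentiated cells they included Mxd1 (0.93) and Mxi1 (0.92), while Mxd4 fell (-0.42).

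Mitochondrial ribosomal protein genes encode the separate ribosome of that organelle. In ES cells 40 of 76 fell and 5 rose (median -0.42). In differentiated cells 8 fell and 35 rose (median 0.17). Their EBIO effect was higher in differentiated than in ES cells in 40 of 76 and lower in none. At an unadjusted p under 0.05 (limma), 46 passed, none lower. Of the 48 cytosolic genes the effect was higher in 4 and lower in 1. Among all 13712 genes tested it was higher in 20.5% and lower in 25%. Mrps31, a small subunit protein of the mitochondrial ribosome, rose by 0.87 in differentiated cells. No test was made of one list against another.

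**Figure D5:**
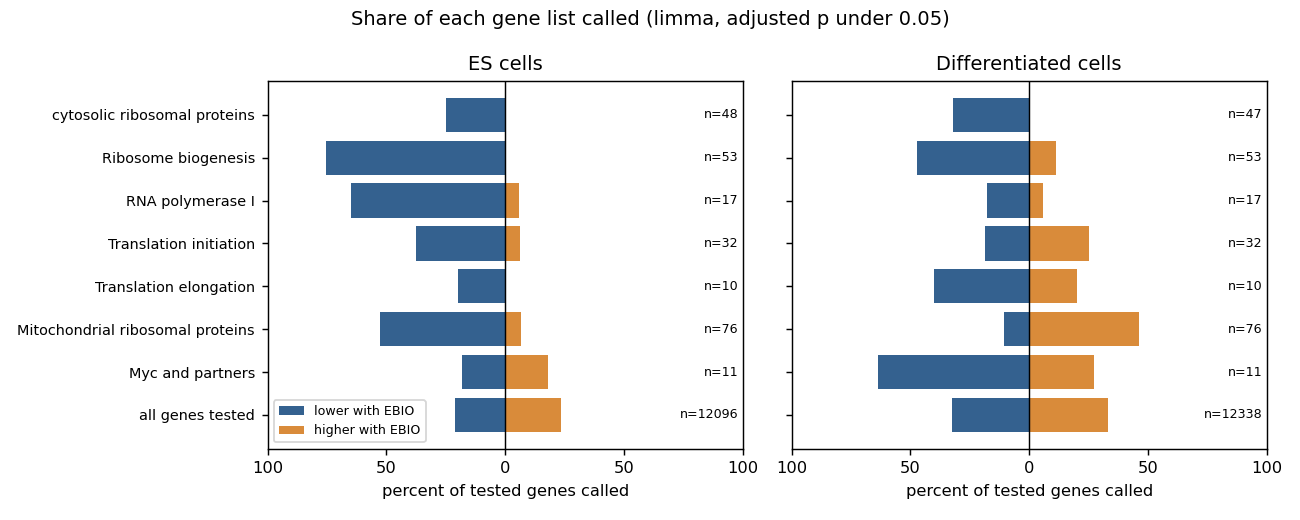
Percent of tested genes in each list with an adjusted p under 0.05 in limma, lower (left of 0) and higher (right of 0) with EBIO, in ES cells (left panel) and differentiated cells (right panel), with the number tested at the right. The cytosolic ribosomal protein genes (25% lower in ES cells, 31.9% in differentiated cells) stand near all genes on the lower side (21.2% and 32.6%) and have none on the higher side, where all genes have 23.5% and 33.3%.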

How the data were processed

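RNA was measured on 10 arrays. The authors deposited log2 values, which come from RMA according to the submitters' processing notes. RMA removes an estimated background, equalizes the distributions within a set and combines probes, which compresses low values. From the values, the stages were normalized separately: quantiles differed by at most 0.0931 within ES arrays, 0.0497 within differentiated arrays and at least 0.908 between them. The number of arrays limits the precision. The design text calls a group's samples independent experiments.

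Of 45101 probe sets, 64 controls were left out, and 34945 had 1 gene symbol in the platform annotation (932 had several). For 34741 of the 34945 the gene ID was found in a RefSeq table, from which the symbol was taken. No symbol of the 50 genes changed by this. Genes entered a test when above the array's 50th percentile on a number of arrays no smaller than the smallest group. Each linear model was fitted in limma 3.58.1 (R 4.3.3) with eBayes and without a block. Benjamini-Hochberg adjustment ran over all genes tested, with a threshold of 0.05. The fits were also tried on simulated data with changes of 1 log2 unit, larger than most changes of the 50 genes. Smaller changes were not simulated. Each stage was fitted on its own arrays, and the difference between stages on all 10. Differences are EBIO minus control.

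Members and lists were chosen with earlier results of these data known. The rule for names took, per comparison, the 8 largest called changes each way without overlap, the 8 brightest and 4 dimmest members, and fixed paralogs, stalk proteins and regulators, and per list the 2 largest called changes each way. Same-numbered ES arrays share a passage per the labels, and their deviations correlated at 0.33, 0.23 and 0.62. Between different passages the values were -0.51 to 0.24, the highest for EBIO array 2 with untreated array 1. Alternatives covered the block, filter, probe set choice, fit, scaling, prior and leaving out arrays. Promoter sequences are RefSeq's on GRCm38.p6; Rpl7, Rpl8, Rps14, Rps4l, Rps29 and Rps20 had no entry used.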

Additional observations from a re-analysis of the deposited data

Results flagged for a closer look

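The values here are differences of the EBIO effect between stages (differentiated minus ES cells, log2) that passed limma's adjusted p of 0.05 in the fit of all 10 arrays, and no explanation of them was tested. Among ribosomal protein genes these were Rpl37 (0.86), Rpl7l1 (0.51), Rps19bp1 (0.49), Rps9 (0.38) and Rps27 (-0.70).

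Among ribosome biogenesis genes named by the rule they were Rrp1b (1.39), Rrp12 (1.32) and Bop1 (0.86), among RNA polymerase I genes Ubtf (1.26), Twistnb (1.08) and Polr1d (-0.61), and among chaperones and quality control factors Bccip (1.01), Tsr2 (0.82), Hbs1l (0.73) and Nemf (0.72). In initiation they were Eif2b3 (1.25), Pabpc4 (1.25), Eif4b (0.57) and Eif3k (0.40), and in elongation Eef1a2 (1.29), Eef2k (0.90), Eef1e1 (0.72) and Eef2 (0.70). In mTOR and TOP control they were Deptor (2.73), Mtor (1.02), Larp1 (0.45), Ddit4 (-1.25) and Sesn1 (-1.97). Deptor was above the array medians in untreated ES cells only (mean 7.14), and lay under them in EBIO-treated ES cells (4.41) and in differentiated cells with (5.48) and without EBIO (5.47), where it was not tested, so its value sets the ES fall against the dim end of the arrays. The Myc list held Mxi1 (1.18), Mycl (-0.59), Mycn (-0.71), Myc (-1.26) and Mxd4 (-1.45). Mitochondrial ribosomal proteins gave Mrps31 (1.64), Mrpl49 (1.10) and Mrps35 (0.93). Not all of these differences held in every alternative setting. Eif4b and Eif3k passed in 9 of 18 and Mycl in 11 of 17. Eef2 and Mxd4 passed in 12 of 18, Larp1 in 13, and Mycn and Nemf in 14.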

How the results depend on the processing

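In ES cells no setting run called a ribosomal protein gene higher. The 12 called there became 21 with probe sets averaged per gene, 21 in a fit of all 4 groups and 26 with a trended robust prior, 9 with arrays centred, 8 with quantile normalization, and 5 to 12 with 1 array left out. The median of -0.23 became -0.13 with quantile normalization of all arrays and -0.25 to -0.20 with 1 array left out. In differentiated cells the 15 called became 6 in a fit of all 4 groups, 25 with the trended robust prior (2 higher) and 7 to 12 with 1 array left out. The median of -0.11 was -0.0443 with arrays centred, -0.0949 with quantile normalization, -0.0968 with the mean of probe sets, and -0.11 without the filter, with the 75th percentile filter and in the fit of all 4 groups; leaving out 1 array gave -0.1214 to -0.0945. The 5 stage differences became 10 with the mean of probe sets, 10 with the trended prior, 3 with arrays centred, 3 with quantile normalization and 1 to 5 with 1 array left out. Apart from fewer arrays, the cause was not tested. With the replicate number as a block, 15, 12 and 5 were called. In differentiated cells the numbers share no label (r = -0.13), and a crossed pairing, added after seeing the data, called 16. Leaving out both passage 27 arrays, added likewise, called 10 in ES cells. Tsr2 fell in differentiated cells (-0.33, adjusted p = 0.00963, limma), but its call was reversed to a rise with the mean of probe sets (0.18, adjusted p = 0.0403). Over single named genes, settings other than leaving out an array kept direction and side of the threshold in 2494 values, lost a call in 104, gained one in 103 and turned an uncalled sign in 56; leaving out an array lost a call in 195 values, gained one in 25 and kept both in 1714. Precision is limited by 2 or 3 arrays a group and by probe sets near the top of the range.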
